A study of Mus musculus with 2 samples.

Results

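Cadherins are surface proteins that join cells in the presence of calcium, and the genes described here are 9 members of the type II branch, Cdh6, Cdh7, Cdh8, Cdh9, Cdh10, Cdh11, Cdh12, Cdh18 and Cdh20, together with Cdh13. They were taken by gene symbol from the feature list of the deposited matrices, and all 10 were found among 33696 genes. The list was chosen with earlier results of these data known. Their levels were followed over marker-defined classes of hippocampal nuclei in mice at postnatal day 19. In one library, labelled Control, both copies of Cic were floxed (Cicflox/flox) and no Cre is listed. The other had the same floxed alleles plus Emx1-Cre (Emx1-Cre; Cicflox/flox), a driver that recombines in the dorsal telencephalic lineage and therefore in excitatory neurons, astrocytes and part of the oligodendrocyte lineage, and carries the label Knockout. Cic encodes Capicua, a transcriptional repressor. Each library pooled nuclei of 2 males and 1 female, so each genotype is 1 library and no difference between genotypes could be tested.

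Type II cadherins bind through their outermost extracellular domain both to themselves and to certain other type II members, so a neuron's adhesive partners depend on the combination it carries. Their cytoplasmic tails hold p120-type and beta catenins and, through alpha catenins, actin. In the hippocampus Cdh9 is known from the mossy fiber synapse, by which dentate granule cells reach CA3 pyramidal cells, and Cdh6, Cdh9 and Cdh10 from the excitatory inputs of CA1. Cdh8 and Cdh11 are closely related and can bind each other. Cdh13 (T-cadherin) is the exception in the set, since it has no cytoplasmic tail and is held in the membrane by a lipid anchor. The title of the series concerns the targeting of mossy fibers to CA3, which makes the granule, CA3 and CA1 combinations the ones of interest.

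The Control library held 25907 barcodes and 314453640 UMIs (unique molecular identifiers, each standing for 1 captured RNA molecule), and the library labelled Knockout 23207 barcodes and 252995761 UMIs; 175 barcode sequences occurred in both. After filters 21865 and 20531 nuclei were used, with medians of 9790 and 8766 UMIs. Nuclei were clustered without the cadherin and catenin genes and named by markers, and 18 classes had at least 100 nuclei in each library. Values are CPM, a gene's UMIs in a class after scaling the class total to 1000000, and ratios are log2 of the library labelled Knockout over Control. Intervals are 95% and cover counting error only, not differences between mice or preparations. Values were called past the size rule at 50 UMIs and 10 CPM or more in the higher library and a difference of at least 2-fold. Counts of a gene in nuclear RNA depend on its length, so levels are compared between classes and libraries and never between genes.

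The targeted gene was not lower by these counts. In dentate granule-like nuclei Cic was counted 515 times in the first library and 514 times in the second (9.16 and 12.6 CPM, log2 0.46), and its ratio was 0.75 for CA3-like nuclei and 0.79 for CA1-like nuclei. Counts at the 3′ end do not report on a deletion elsewhere in the gene, and which exons are floxed is not given in the sources used here, so the second library is called by its label throughout. Etv4 and Etv5, transcription factor genes known to be repressed by Capicua, were at 1.03 and 1.53 CPM in Control granule-like nuclei and at 112 and 90.7 CPM in the library labelled Knockout.

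The promoter sequences were searched for the Capicua octamer because Cic is the gene targeted. RefSeq's table for GRCm38.p6 held 10 windows for 8 of the 10 members, each reaching from 250 bases before to 50 bases after a start site. Cdh11 and Cdh13 had no entry. The octamers TGAATGAA, TGAATGGA, TCAATGAA and TCAATGGA, read on both strands, occurred in 1260 of 32851 windows in the table (3.835%). Of the 8 members 1 held an octamer, Cdh6, as its reverse complement starting at position -21 relative to the start site. Its window lies at chr15:13173626-13173925 on the minus strand and is printed with the octamer in capitals. The window of Cdh10 at chr15:18820079-18820378 on the plus strand is shown beside it, because Cdh10 had the largest ratio of the members in granule-like nuclei; it holds no octamer and its GC content was 37.67% against a median of 52.67% over all windows.
Cdh6: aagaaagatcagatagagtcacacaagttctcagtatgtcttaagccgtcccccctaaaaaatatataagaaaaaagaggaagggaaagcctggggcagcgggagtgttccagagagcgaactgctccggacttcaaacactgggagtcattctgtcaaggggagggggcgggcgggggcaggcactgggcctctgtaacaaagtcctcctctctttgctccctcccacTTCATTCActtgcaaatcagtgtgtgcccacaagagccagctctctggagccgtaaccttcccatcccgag
Cdh10: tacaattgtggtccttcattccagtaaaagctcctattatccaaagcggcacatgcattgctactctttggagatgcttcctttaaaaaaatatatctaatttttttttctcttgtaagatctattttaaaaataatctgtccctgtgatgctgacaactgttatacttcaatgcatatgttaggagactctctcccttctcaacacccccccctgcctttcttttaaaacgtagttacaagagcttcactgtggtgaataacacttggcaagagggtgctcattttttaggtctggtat
A match is a description of these letters and not a bound site. Cdh6, Cdh9, Cdh10 and Cdh12 follow one another along chromosome 15 in the RefSeq order with 0 protein-coding genes between neighbours, and Cdh18 comes next with 1, Acot10, between it and Cdh12.

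Most cadherin levels were close between the libraries, and the values past the size rule were all higher in the library labelled Knockout. Of 180 class by member values, 132 met these minimums and could be judged, and 101 of these had a log2 ratio under 0.5 in size. The rule was passed by 11 values, 11 higher and 0 lower, which belonged to 6 members in 6 classes. In those classes genes past the rule were mostly higher as well: between 1.20% (Cajal-Retzius) and 3.34% (CA1) of all genes judged passed in the higher direction and between 1.44% (Cajal-Retzius) and 4.00% (CA1) in either. Cdh13 passed in 4 classes, Cdh6 and Cdh7 in 2 each, and Cdh10, Cdh18 and Cdh20 in 1 each. Cdh8, Cdh9, Cdh11 and Cdh12 passed in none. Their ratios ran from -0.52 to 0.51 (Cdh8), -0.40 to 0.95 (Cdh9), -0.27 to 0.56 (Cdh11) and -0.94 to 0.66 (Cdh12).

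**Figure D1:**
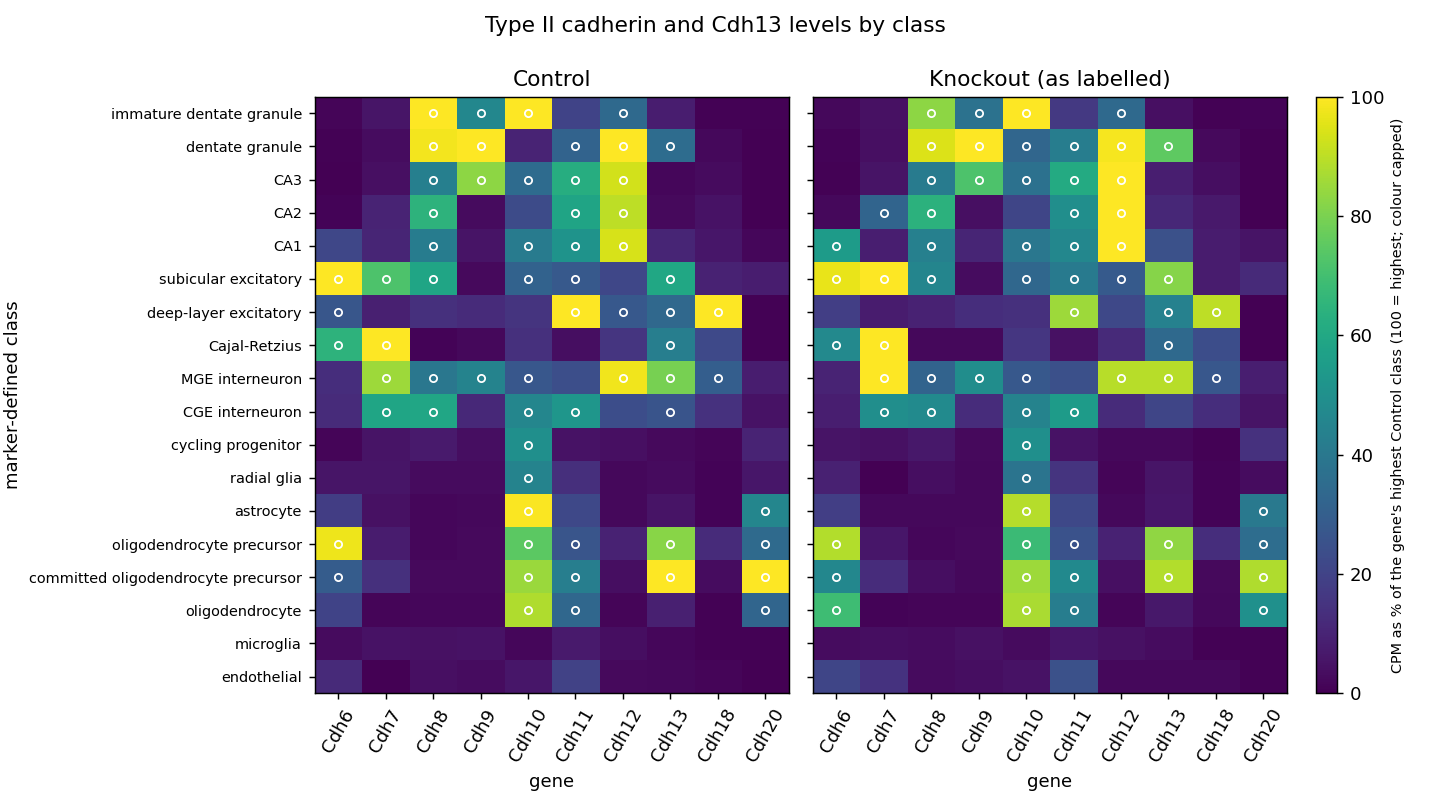
Each cell of the maps is the CPM of 1 gene (columns) in 1 marker-defined class (rows) as a percent of that gene's highest Control class, for the Control library (left) and the library labelled Knockout (right); circles mark levels of at least 25%. Of 180 cells 8 differ in their circle, among them Cdh10 in dentate granule, Cdh6 in CA1 and oligodendrocyte, and Cdh7 in CA2.

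Dentate granule-like nuclei carried Cdh8, Cdh9, Cdh11, Cdh12 and Cdh13 at 25% or more of each gene's highest Control class. Cdh9 was at its highest there (811 CPM against 845 CPM in the second library, log2 0.06, interval 0.04 to 0.08). Cdh8 stood at 1294 and 1249 CPM (log2 -0.05) and Cdh12 at 519 and 512 CPM (log2 -0.02). Over the whole class these 3 were nearly level between the libraries, while Cdh11 was higher in the second one, at 317 and 421 CPM (log2 0.41, interval 0.38 to 0.44). The class joined 2 clusters that the libraries filled unequally, and within each of them Cdh11 was close to level (log2 0.02 and -0.05), while Cdh8, Cdh9 and Cdh12 differed between the libraries.

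Cdh10 and Cdh13 were the 2 members past the size rule among 7 that met the minimums in granule-like nuclei, where 3.30% of all 8433 genes judged passed in either direction and 2.25% in the higher direction. Cdh10 in these nuclei was named in an earlier account of the libraries, so its value is a description without independent support. Cdh10 had 6452 UMIs in Control and 15691 in the library labelled Knockout. Its level was 115 CPM (112 to 118) against 385 CPM (379 to 391), a log2 ratio of 1.75 (1.70 to 1.79). Cdh13 had 16473 and 25503 UMIs, at 293 CPM (289 to 297) against 625 CPM (618 to 633), a log2 ratio of 1.09 (1.07 to 1.12). Cdh13 was under 2-fold with list genes in the clustering (0.93, with 16849 and 20974 UMIs), so its call was lost there. In that clustering a cluster nearest granule cells (21 Control nuclei and 327 in the other library) stayed unnamed and outside the class. Its mean log2 marker fold of 0.78 was under the minimum of 1 set after the clusters were seen. The part of that cluster in the change was not tested. The median ratio over the 7 members was 0.12, beside 0.02 over all genes judged. Cdh10 was 1.63 in female and 1.86 in male nuclei, and Cdh13 was 1.07 and 1.17. These nuclei are parts of the same pools, so the values by sex add no independent support.

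The share of granule-like nuclei with at least 1 UMI followed the levels. For Cdh10 it was 47.5% (46.0% to 48.9%, exact binomial) in Control and 88.9% (87.9% to 89.9%) in the library labelled Knockout, and for Cdh13 72.4% and 92.7%. Both genes were seen together in 36.3% and 82.6% of nuclei, and the products of the single shares were 34.4% and 82.5%. The median depths were 11738 and 10685 UMIs, and with each nucleus thinned to 2000 UMIs both genes were seen in 7.09% and 30.5%. Microglia-like nuclei, which should lack both genes, had Cdh10 in 4.56% and 5.87% and Cdh13 in 3.11% and 4.33% at median depths of 2137.5 and 1730 UMIs.

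Different clusters made up most of the granule-like class in each library. A cluster led by Trpc6 held 92.6% of the class in Control and 1.91% in the library labelled Knockout, and a cluster led by Bmp6 held 7.42% and 98.1%. Cdh10 was at 99.9 CPM in the Trpc6-led cluster of Control and 294 CPM in the 70 nuclei of that cluster in the other library (log2 1.56, interval 1.36 to 1.76). In the Bmp6-led cluster it was at 323 CPM in the 340 Control nuclei and 386 CPM in the other library (log2 0.26, interval 0.17 to 0.34), which is below the size rule. Cdh13 had ratios of 0.96 and 0.60 within the same clusters, both under 2-fold. Cdh11 was at 308 and 312 CPM in the Trpc6-led cluster (interval of log2 -0.18 to 0.20) and at 437 and 423 CPM in the Bmp6-led cluster (-0.12 to 0.03), so its difference over the class was not seen within either. Cdh8 was lower in the library labelled Knockout within both clusters, by log2 ratios of -0.40 and -0.25. Cdh12, Cdh9 and Cdh18 had opposite directions within the clusters. Cdh12 was at 532 and 376 CPM in the Trpc6-led cluster (log2 -0.50, interval -0.68 to -0.33) and at 323 and 515 CPM in the Bmp6-led cluster (log2 0.67, interval 0.59 to 0.76). Cdh9 had log2 ratios of 0.21 (interval 0.10 to 0.32) and -0.33 (interval -0.38 to -0.28). Cdh18 was nearly level over the whole class (34.1 and 37.1 CPM, log2 0.12). It stood at 35.6 and 6.78 CPM in the Trpc6-led cluster (1869 and 5 UMIs, log2 -2.26, interval -4.02 to -1.17) and at 13.1 and 37.6 CPM in the Bmp6-led cluster (49 and 1506 UMIs, log2 1.51, interval 1.11 to 1.96).

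Cdh10 and Cdh13 ran in opposite directions over the granule lineage. Immature granule-like nuclei fell into 2 clusters, one led by Sema3c with a summed level of 1197 CPM for the 6 immature markers (Dcx, Sox11, Igfbpl1, Draxin, Neurod1, Calb2) in Control, and one led by Rasef with 530 CPM; the granule-like class had 92.3 CPM. Cdh10 in Control stood at 1332 CPM in the Sema3c-led cluster, 596 CPM in the Rasef-led cluster and 115 CPM in the granule-like class. In the library labelled Knockout it stood at 1323, 612 and 385 CPM. The immature levels of Cdh10 thus had ratios of -0.01 and 0.04, and the difference between libraries was in the granule-like class. Cdh13 in Control stood at 12.7, 243 and 293 CPM in the same order, and in the other library at 15.2, 130 and 625 CPM. It was lower in the Rasef-led cluster (679 and 217 UMIs, log2 -0.91, interval -1.14 to -0.69) and higher in the granule-like class. Cdh9 was lowest in the Sema3c-led cluster, at 223 and 185 CPM, and reached 894 and 917 CPM in the Rasef-led one.

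**Figure D2:**
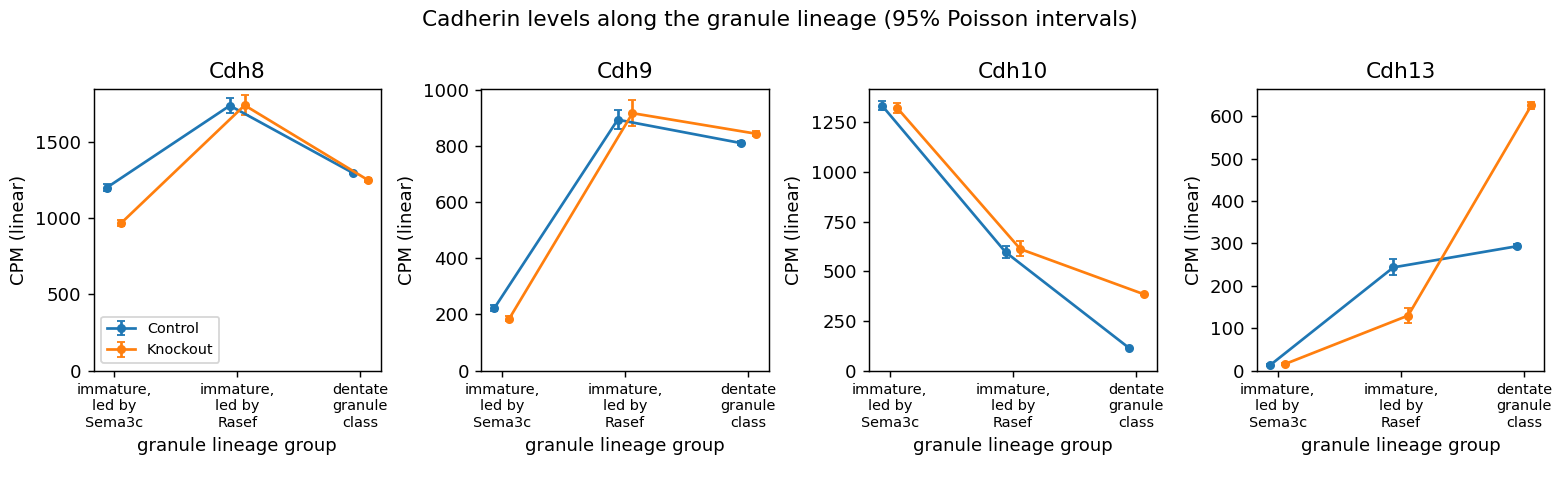
CPM (linear axis) of 4 cadherins in the immature cluster led by Sema3c, the immature cluster led by Rasef and the dentate granule class, with 95% Poisson intervals; 1 point per library. Cdh10 goes from 1332 to 115 CPM in Control and from 1323 to 385 CPM in the library labelled Knockout, while Cdh13 reaches 293 and 625 CPM.

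Markers of maturity also differed between the libraries. In granule-like nuclei the 6 immature markers summed to 92.3 CPM in Control and 154 CPM in the library labelled Knockout, 6 of 6 were above 0 in log2 ratio and 0 reached 2-fold, with Dcx at 0.99 and Igfbpl1 at 1.00. The 6 granule markers summed to 1801 and 1338 CPM, 5 of 6 were lower, and Trpc6 (-1.70) and Plk5 (-1.29) were lower by more than 2-fold. None of the 12 was at 0 in either library. Within single clusters the immature markers went in opposite directions. In the Trpc6-led cluster they summed to 81.0 CPM in Control and 134 CPM in the 70 nuclei of the other library. There 6 of 6 ratios were above 0, though 2 of the markers had no UMI in those 70 nuclei. In the Bmp6-led cluster the immature markers summed to 251 CPM in Control and 154 CPM in the other library, with 6 of 6 below 0. The part of maturation in the Cdh10 and Cdh13 values was not tested.

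Immature granule-like nuclei as a class had 8 members that met the minimums and 0 past the size rule, where 0.346% of 9524 genes passed. Their code was Cdh8, Cdh9, Cdh10 and Cdh12 in both libraries. Cdh8 was at 1320 and 1095 CPM (log2 -0.27) and Cdh10 at 1166 and 1206 CPM (log2 0.05). Cdh13 had the lowest ratio, at 65.0 and 34.0 CPM (log2 -0.93), lower in female (-0.97) and in male nuclei (-0.89). That value came mostly from the Rasef-led cluster, which held 13.2% and 9.04% of the class. The Sema3c-led cluster, with 86.8% and 91.0% of the class, held 121 of 800 and 129 of 346 UMIs of Cdh13. There Cdh13 was at 12.7 and 15.2 CPM (log2 0.26, interval -0.11 to 0.63).

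CA3-like nuclei, the targets of the mossy fibers, carried Cdh8, Cdh9, Cdh10, Cdh11 and Cdh12 in both libraries. Cdh9 stood at 672 and 585 CPM (log2 -0.20, interval -0.23 to -0.16), Cdh11 at 621 and 609 CPM (log2 -0.03) and Cdh8 at 571 and 549 CPM (log2 -0.06). Cdh10 was at 407 and 433 CPM (log2 0.09) and Cdh12 at 483 and 610 CPM (log2 0.34, interval 0.30 to 0.37). Of 7 members that met the minimums, 1 was past the size rule, where 1.82% of 8039 genes passed in either direction and 1.33% in the higher one. That member was Cdh13, with 330 UMIs in Control and 1304 UMIs in the other library, at 13.9 CPM (12.4 to 15.5) against 68.3 CPM (64.6 to 72.1), a log2 ratio of 2.30 (2.12 to 2.48).

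The Control level of Cdh13 in CA3-like nuclei was the lowest of the 19 classes described and did not differ from that of microglia-like nuclei (14.3 CPM) beyond its counting interval. In the library labelled Knockout microglia-like nuclei were at 26.8 CPM. Microglia-like nuclei are shallow, with medians of 2137.5 and 1730 UMIs, so equal CPM there stands for fewer UMIs per nucleus. Subtraction of the estimated free RNA left 299.8 of 330 Control UMIs of Cdh13 in CA3-like nuclei. In the other library it left 1262.2 of 1304 (log2 2.38). A UMI of Cdh13 was found in 21.2% of Control CA3-like nuclei and 54.8% of those in the other library, at median depths of 24388.5 and 21499.5 UMIs, and in 2.32% and 12.2% after thinning. At that level Cdh13 remained at 8.21% of its highest Control class and so under the 25% bound of a high state. Markers of other classes that carry Cdh13 were also summed in CA3-like nuclei. The 7 mossy cell markers came to 59.2 and 56.8 CPM, the 6 markers of MGE interneurons (from the medial ganglionic eminence) to 7.53 and 8.48 CPM, and the 6 markers of committed oligodendrocyte precursors to 7.07 and 5.60 CPM. The 6 markers of oligodendrocyte precursors summed to 590 and 490 CPM, the 6 of granule cells to 22.0 and 16.3 CPM, the 6 of subicular excitatory neurons to 11.6 and 15.6 CPM and the 6 of CA1 to 121 and 191 CPM. Of these 7 sums, those of CA1, subicular and MGE markers were higher in the library labelled Knockout, and the part of such nuclei or their RNA in the Cdh13 level was not tested.

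CA2-like nuclei, 145 and 128 in number, had 2 of 8 members past the size rule, where 3.48% of 6263 genes passed in either direction and 2.41% in the higher one. Cdh13 had 71 and 242 UMIs, at 20.3 and 91.4 CPM (log2 2.16, interval 1.78 to 2.57). Cdh7, which was low in every CA field in Control, had 23 and 56 UMIs, at 6.58 and 21.1 CPM (log2 1.67, interval 0.96 to 2.45). With doublets kept both values were just under 2-fold, Cdh13 at 0.997 and Cdh7 at 0.970. The nuclei were clustered anew for that setting, and its CA2-like class was larger, with 421 and 343 nuclei. There Cdh13 had 1094 and 1582 UMIs and Cdh7 95 and 135. The part of doublets, or of the other nuclei joined to the class, in the change was not tested. Cdh8, Cdh11 and Cdh12 made up the CA2-like code in Control, and Cdh12 was at 468 and 690 CPM (log2 0.56). Cdh9 and Cdh10 were under the 25% bound in this class, unlike in CA3-like nuclei. Scaling by TMM lowered all ratios in this class by 0.123 and in CA1-like nuclei by 0.106. Shifts of that size cannot change the direction of a value past the 2-fold rule. Cdh8 in CA1-like nuclei, with a ratio of 0.05, falls below 0 by the shift of its class.

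**Figure D3:**
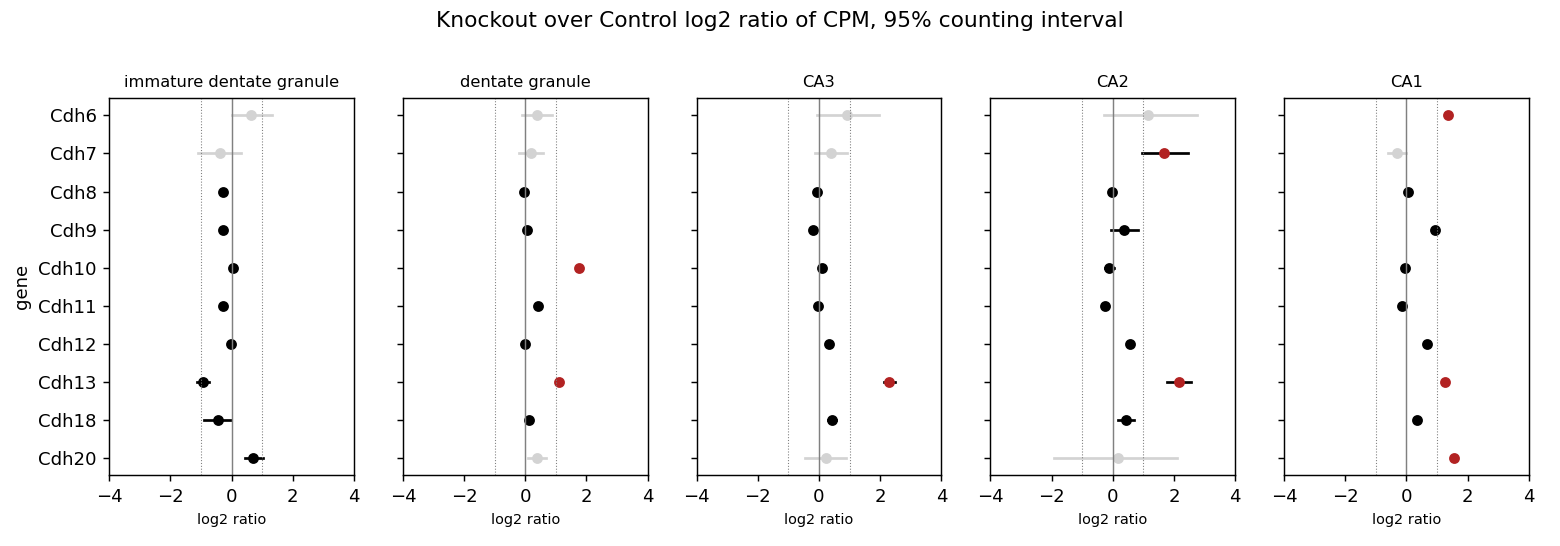
Log2 ratio of CPM, library labelled Knockout over Control, of the 10 genes in 5 classes, with 95% counting intervals; grey points had under 50 UMIs or 10 CPM, red points passed the size rule, and dotted lines mark 2-fold. Cdh13 is at 1.09, 2.30, 2.16 and 1.26 in dentate granule, CA3, CA2 and CA1 and at -0.93 in immature dentate granule.

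CA1-like nuclei carried Cdh8, Cdh10, Cdh11 and Cdh12 in Control, and the library labelled Knockout added Cdh6. Of 9 members that met the minimums, 3 were past the size rule, where 4.00% of 8271 genes passed in either direction and 3.34% in the higher one. Cdh6 had 1638 and 3720 UMIs, at 48.7 CPM (46.4 to 51.2) against 126 CPM (122 to 130), a log2 ratio of 1.36 (1.28 to 1.45). Cdh20 was at 41.1 and 120 CPM (log2 1.54, interval 1.45 to 1.63). Cdh13 was at 85.9 and 205 CPM (log2 1.26, interval 1.19 to 1.32). Cdh9 (43.4 and 83.6 CPM, log2 0.95) and Cdh12 (487 and 770 CPM, log2 0.66) were higher without passing. Cdh8, Cdh10 and Cdh11 lay between -0.15 and 0.05. The median over the 9 members was 0.66, beside 0.09 over all genes judged.

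The CA1-like class was made of 3 clusters with unequal shares, and the values of Cdh13 and Cdh20 depended on how they were joined. One led by 4921539H07Rik held 77.3% of the class in Control and 0.688% in the library labelled Knockout, one led by Emp1 held 12.5% and 79.5%, and one led by C1qtnf7 held 10.1% and 19.8%. In the C1qtnf7-led cluster Cdh13 was high in both libraries, at 619 and 653 CPM (log2 0.08), and so was Cdh20, at 267 and 307 CPM (log2 0.20). It held 2702 of the 2885 Control UMIs of Cdh13 in the class and 1165 of the 1380 of Cdh20. This cluster was joined to the class on 3 raised CA1 markers and a mean log2 fold of 1.02, just over a minimum of 1 that was set after the clusters were seen. Without that cluster Cdh13 was at 6.26 and 67.2 CPM (183 and 1520 UMIs, log2 3.42, interval 3.20 to 3.65) and Cdh20 at 7.35 and 61.8 CPM (215 and 1398 UMIs, log2 3.07, interval 2.86 to 3.28). Cdh6 was at 45.6 and 129 CPM outside the cluster and at 70.1 and 114 CPM inside it (log2 0.70). Cdh9 was at 23.9 and 25.9 CPM outside the cluster (log2 0.12). Outside the C1qtnf7-led cluster the libraries still drew on different clusters, and within the Emp1-led cluster alone the values were again different. Cdh13 had 12 and 1519 UMIs there, at 3.19 and 67.7 CPM. Both Control levels of Cdh13 outside the C1qtnf7-led cluster were below the 14.3 CPM of Control microglia-like nuclei, and so was the 7.35 CPM of Cdh20 (8.97 CPM in Control microglia-like nuclei). Microglia-like nuclei are shallow, with a Control median of 2137.5 UMIs. Subtraction of the estimated free RNA left 2829 of 2885 Control UMIs of Cdh13 and 1345 of 1380 of Cdh20 over the whole CA1-like class. Most of those UMIs lay inside the C1qtnf7-led cluster, so this subtraction does not bear on the levels outside it. Cdh6 was at 10.9 and 128 CPM in the Emp1-led cluster (log2 3.54). Cdh20 was at 27.6 and 62.0 CPM in that cluster (log2 1.16, interval 0.88 to 1.47), and Cdh9 was lower in the library labelled Knockout, at 48.4 and 25.9 CPM (log2 -0.90, interval -1.14 to -0.65). The choice to leave this cluster out was made after the values were seen.

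**Figure D4:**
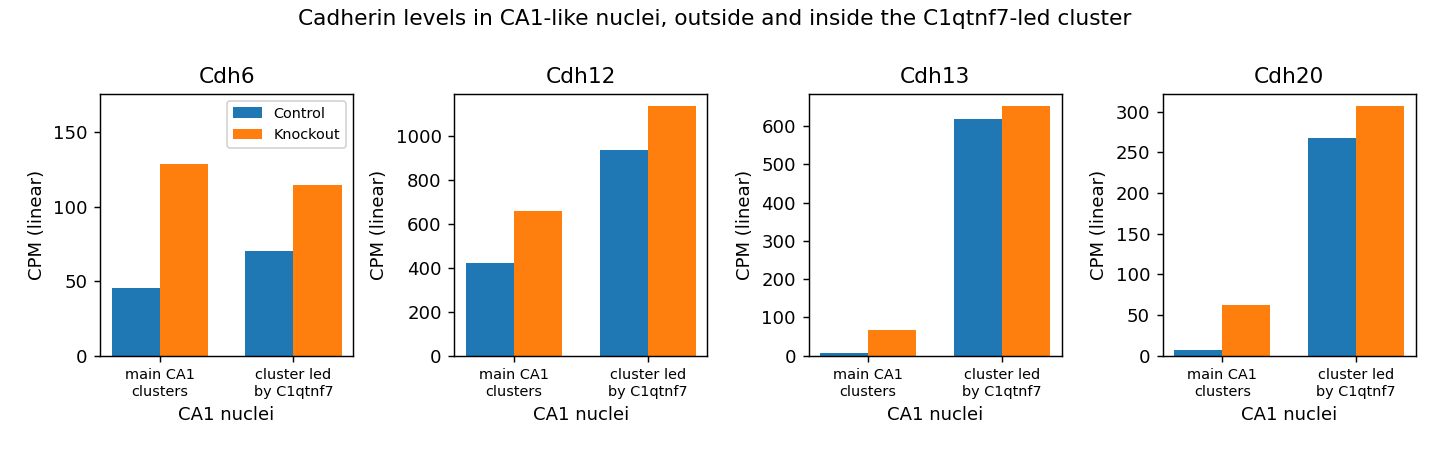
Bars give the CPM of 4 cadherins in CA1-like nuclei, outside (left pair) and inside (right pair) the cluster led by C1qtnf7, for the Control library and the library labelled Knockout; each bar is 1 library and each axis starts at 0. Cdh13 is at 6.26 and 67.2 CPM outside the cluster and at 619 and 653 CPM inside it.

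Markers of the neighbouring subiculum moved in the same class. The 6 subicular markers summed to 181 CPM in Control CA1-like nuclei and 419 CPM in the library labelled Knockout, 5 of 6 were higher and 3 by at least 2-fold, while the 6 CA1 markers summed to 882 and 791 CPM. The 6 immature granule markers summed to 49.5 and 115 CPM. Subicular-like nuclei themselves had the highest Cdh6 level of all classes (230 and 222 CPM, log2 -0.05) and, with 0 of 10 members past the rule (3.00% of genes passed), high Cdh13 (494 and 682 CPM, log2 0.46). The part of subicular neurons in the CA1 values was not tested. An unnamed cluster led by Gm29771, Cd36 and Dcn, whose nearest marker set was that of CA1, had Cdh13 at 110 and 451 CPM (log2 2.04, interval 1.96 to 2.12) and Cdh20 at 103 and 210 CPM (log2 1.02).

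Sex separates the pools further, since the labels give 1 female and 2 males in each. Of the 11 values past the size rule, 11 were above 0 in female and in male nuclei and 9 were at least 2-fold in both. These 9 include Cdh7 in CA2-like nuclei, with 2 and 12 UMIs in female nuclei (interval of log2 0.49 to 5.86) and 12 and 32 UMIs in male nuclei, which is under the minimum of 50 UMIs. In CA1-like nuclei Cdh13 was at 56.6 and 226 CPM in female nuclei (log2 2.00) and at 103 and 179 CPM in male nuclei (log2 0.80). Cdh20 in the same class was 2.71 in female and 1.06 in male nuclei. The C1qtnf7-led cluster held 2702 of the 2885 Control UMIs of Cdh13 in this class and 1165 of the 1380 of Cdh20. The part of that cluster in the female and male values was not tested. Cdh13 in CA3-like nuclei was 2.96 in female and 1.86 in male nuclei. In CA2-like nuclei Cdh13 was 3.78 in female nuclei (8 and 111 UMIs) and 1.34 in male nuclei (47 and 89 UMIs). Cdh7 in Cajal-Retzius-like nuclei was 0.48 in female nuclei, with an interval of -0.13 to 1.10, and 1.51 in male nuclei, and the value over all nuclei (1.01) was under 2-fold with TMM scaling (0.998), with free RNA subtracted (0.991) and with 5 UMIs added (0.960). Female nuclei of a library are those of 1 mouse, so these values do not make replicates.

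**Figure D5:**
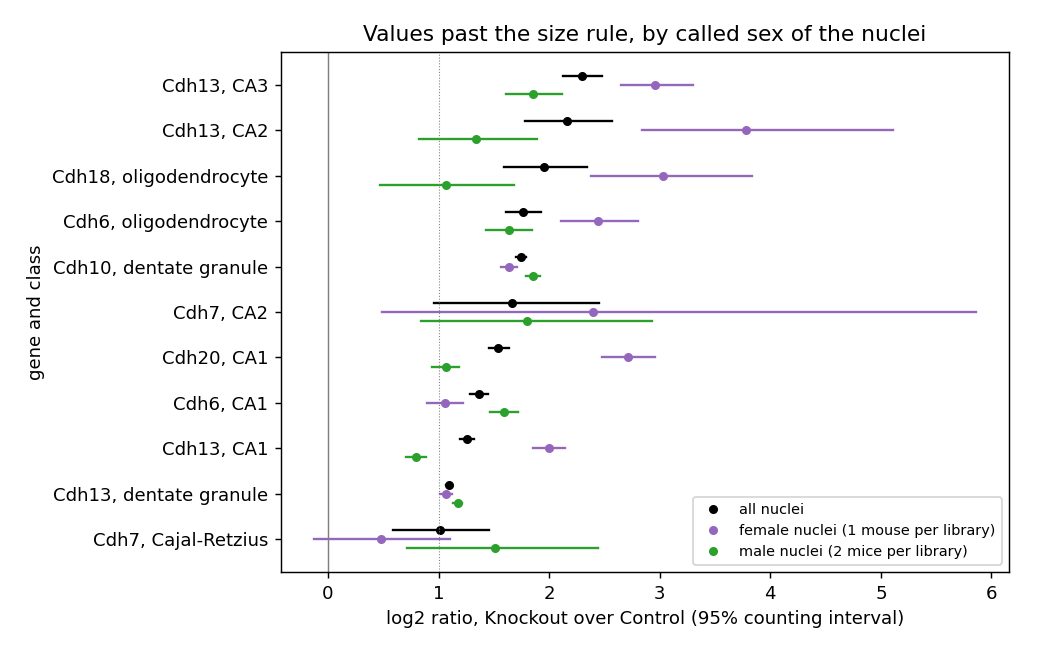
Log2 ratio of CPM, library labelled Knockout over Control, with 95% counting intervals, for the 11 values past the size rule in all nuclei (black), female nuclei (purple) and male nuclei (green); the dotted line marks 2-fold. All points lie above 0, and the interval of Cdh7 in female Cajal-Retzius nuclei crosses it.

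In the oligodendrocyte lineage Cdh10, Cdh11 and Cdh20 were high from precursor to oligodendrocyte. Cdh20 peaked in committed oligodendrocyte precursor-like nuclei, at 2243 and 1974 CPM (log2 -0.18), and stood at 777 and 804 CPM in oligodendrocyte precursor-like nuclei (log2 0.05). Cdh13 was high in the same pair, at 831 and 736 CPM (log2 -0.18) and at 684 and 695 CPM (log2 0.02), and under the 25% bound in oligodendrocyte-like nuclei (72.2 CPM in Control). Cdh6 was lower at each step in Control, from 224 CPM in precursors through 67.1 CPM to 46.4 CPM in oligodendrocytes. In the library labelled Knockout it was at 203, 106 and 158 CPM. No member passed the size rule in either precursor class, where 0.179% and 1.20% of genes passed.

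In oligodendrocyte-like nuclei 2 of 8 members passed, where 3.23% of 8107 genes passed in either direction and 2.20% in the higher one. Cdh6 had 463 and 1309 UMIs (log2 1.77, interval 1.61 to 1.92), and Cdh18 had 81 and 262 UMIs, at 8.12 and 31.6 CPM (log2 1.96, interval 1.60 to 2.34). Cdh18 was 3.03 in female and 1.07 in male nuclei, 1.39 with doublets kept and 1.37 with list genes in the clustering. The Control level of Cdh18 (interval 6.45 to 10.1 CPM) was not above that of Control microglia-like nuclei (8.97 CPM), while microglia-like nuclei of the library labelled Knockout stood at 9.54 CPM. Subtraction of the estimated free RNA left 57.5 of 81 Control UMIs of Cdh18 and 245.8 of 262 in the other library (log2 2.25). Cdh20 was at 736 and 1124 CPM (log2 0.61) and Cdh10 was level at 1025 and 1019 CPM. The class was again unequally divided: a cluster led by 4930420G21Rik held 80.1% in Control and 23.3% in the library labelled Knockout, and one led by Tnni1 held 19.9% and 76.7%. Cdh6 was at 50.9 and 184 CPM in the Tnni1-led cluster (log2 1.85) but at 44.8 and 28.6 CPM in the other (log2 -0.63, interval -1.17 to -0.17), so its direction depended on the cluster. Cdh18 was higher in both clusters, at 4.55 and 32.7 CPM in the Tnni1-led one and at 9.40 and 26.4 CPM in the other. The 6 oligodendrocyte markers summed to 21326 and 21231 CPM.

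Astrocyte-like nuclei had a code of 2 members, Cdh10 (1159 and 1036 CPM, log2 -0.16) and Cdh20 (1029 and 910 CPM, log2 -0.18), and 0 of 9 members past the size rule, where 0.222% of genes passed. Radial glia-like and cycling progenitor-like nuclei were high for Cdh10 alone, each with 3 members judged and 0 past the rule, which 1.81% and 1.20% of genes passed. Cdh20 in radial glia-like nuclei was at 140 and 74.4 CPM with 232 and 67 UMIs (log2 -0.91, interval -1.33 to -0.51), short of 2-fold. Microglia-like and endothelial-like nuclei were high for 0 members in both libraries, and 0 of 6 and 0 of 1 passed the rule, which 0.303% and 6.08% of genes did.

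Interneurons lie largely outside the Emx1 lineage. With 1 library per genotype their values cannot separate genotype from library. MGE interneuron-like nuclei carried 7 members, Cdh7, Cdh8, Cdh9, Cdh10, Cdh12, Cdh13 and Cdh18, with the same code in both libraries. All 10 members met the minimums, 0 passed the size rule (0.0343% of 8754 genes passed), and the ratios lay between -0.41 and 0.57. Cdh13 was at 660 and 743 CPM (log2 0.17). In CGE interneuron-like nuclei, from the caudal ganglionic eminence, 0 of 10 members passed (0.433% of 8784 genes passed), and Cdh12 was at 123 and 64.5 CPM (747 and 370 UMIs, log2 -0.94, interval -1.12 to -0.75). Cajal-Retzius-like nuclei, which line the hippocampal fissure, carried Cdh6, Cdh7 and Cdh13. Cdh7 was the 1 of 7 members past the rule there (66 and 144 UMIs, 65.8 and 133 CPM, log2 1.01, interval 0.59 to 1.46), a value at the edge of the rule that 3 alternatives took under 2-fold over all nuclei, where 1.44% of 4090 genes passed in either direction and 1.20% in the higher one.

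Deep-layer excitatory-like nuclei were the highest class for Cdh18 (1563 and 1405 CPM, log2 -0.15) and Cdh11 (996 and 849 CPM, log2 -0.23). Cdh6 (61.6 and 42.6 CPM, log2 -0.53) and Cdh8 (185 and 129 CPM, log2 -0.52) were lower in the library labelled Knockout without passing the rule, which 1.11% of 8538 genes did. Mossy cell-like nuclei, 71 and 113 in number and so outside the counts, combined Cdh13 (721 and 965 CPM, log2 0.42) with Cdh10 (695 and 747 CPM, log2 0.10) and Cdh8 (521 and 428 CPM, log2 -0.28). Mossy cells are the excitatory neurons of the hilus. Their Cdh6 and Cdh7 counts were 2 to 8 UMIs and give no usable ratio.

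Read as a combination, the 18 classes showed 15 distinct codes in each library. There were 64 high states in Control and 66 in the library labelled Knockout, and 8 of 180 states differed. Over 12 alternatives that count ran from 8 to 13. The states gained were Cdh10 in dentate granule, Cdh6 in CA1, Cdh7 in CA2, Cdh6 in oligodendrocyte and Cdh12 in subicular nuclei. The states lost were Cdh13 in CGE interneurons and Cdh6 and Cdh12 in deep-layer nuclei. The granule and CA3 codes differed by 2 states in Control, Cdh10 (CA3 alone) and Cdh13 (granule alone), and by 1 state in the library labelled Knockout, Cdh13. CA1 and CA3 differed by 1 state in Control, Cdh9, and by 2 in the other library. The states lost had been just above the 25% bound in Control: Cdh12 in deep-layer nuclei went from 27.4% to 21.7% of its highest class, Cdh6 there from 26.8% to 18.6%, and Cdh13 in CGE interneurons from 26.2% to 20.8%. Of those gained, Cdh12 in subicular nuclei was at 21.3% and 28.2%, and Cdh6 in CA1 at 21.2% and 54.7%. Cdh7 in CA2 was at 9.99% and 32.1%, on 23 and 56 UMIs. Cdh6 in oligodendrocyte was at 46.4 and 158 CPM, beside 230 CPM in its highest Control class. Cdh10 in dentate granule was at 115 and 385 CPM, beside 1166 CPM in its highest Control class. Cdh13 in CA1 was not counted as gained, at 10.3% and 24.7%, just under the bound.

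The genes whose Control pattern over the 18 classes was most like that of each member were found among 12758 genes by Pearson correlation of log2(CPM + 1), as a description without a test. For Cdh10 they were Elovl6 (r 0.92), Dnaaf9 (0.85) and Pcdh7 (0.84), and for Cdh13 Gm15584 (0.91), Brinp3 (0.90) and Lrrtm3 (0.87). Cdh12 was nearest to Kcnj6 (0.95), Gabbr2 (0.94) and Clvs2 (0.94), and Cdh20 to Sox8 (0.86), Sox2ot (0.84) and Sox2 (0.83), transcription factor loci of glial cells. Cdh8 had A330008L17Rik (0.96), Gm15680 (0.96) and A830018L16Rik (0.93), and Cdh9 had Gm49127 (0.93) and Myo5b (0.88). Cdh18 was nearest to Dpp10 (0.89), Krt222 (0.87) and Htr1f (0.87), and Cdh7 to Hrh2 (0.80), Kctd8 (0.80) and Vstm5 (0.79). Cdh6 (Tshz2 0.78, Sorcs1 0.77, Cxxc4 0.77) and Cdh11 (Prickle1 0.77, Rabgap1l 0.75, Cadm2 0.74) had the weakest nearest patterns. The points share 1 library and its depths.

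Other cadherins and a list of 11 genes, called tail partners here, were judged over the same classes. The list held Ctnna1, Ctnna2, Ctnna3, Ctnnb1, Ctnnd1, Ctnnd2, Jup, Plekha7, Vcl, Tjp1 and Adam10. Not all of their proteins bind the cadherin tail directly. Of 162 values of 9 other cadherins 45 met the minimums, and 3 were past the size rule, 3 higher and 0 lower, in classes where 3.30% (dentate granule), 3.48% (CA2) and 4.00% (CA1) of all genes passed. Cdh4 (R-cadherin, a type I member) was the one in granule-like nuclei, at 10.3 and 56.3 CPM (581 and 2297 UMIs, log2 2.45, interval 2.31 to 2.58). Cdh4 passed in CA2-like nuclei as well (11.7 and 28.7 CPM, log2 1.28), and Cdh22, another type II member, in CA1-like nuclei (7.89 and 20.4 CPM, log2 1.37). Cdh2 (N-cadherin) was at 352 and 411 CPM in granule-like nuclei (log2 0.22) and at 469 and 446 CPM in CA3-like nuclei (log2 -0.07). Of 198 values of 11 tail partners 158 met the minimums and 5 were past the rule, 5 higher and 0 lower. They were Ctnna3, an alpha catenin, in CA1-like (log2 1.31; 4.00% of all genes passed), CA3-like (log2 1.22; 1.82% passed) and radial glia-like nuclei (log2 1.07; 1.81% passed), and Ctnna2 (log2 1.00) and Ctnnd2 (log2 1.27) in endothelial-like nuclei, where 6.08% of 1777 genes passed. In granule-like nuclei 0 of the 8 partners judged passed.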

How the data were processed

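Frozen hippocampi were pooled, and nuclei cleaned with beads were captured by 10x 3′ GEM-X chemistry, per the labels' protocols. The authors deposited unnormalised UMI counts of each gene in each nucleus from Cell Ranger 8.0.1 on build mm39, per the file headers and the submitters' processing notes. Whether introns or strand were counted is not given in the sources used here, so overlapping and antisense genes cannot be told apart. A reference of build mm39 was not used here, and promoter windows are RefSeq's on GRCm38.p6, used by gene symbol.

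Nuclei with under 500 genes or over 5% mitochondrial UMIs were left out, as were doublets called per library by Scrublet in scanpy 1.11.5 (12.7% of Control and 10.9% of the other library). Both libraries were clustered together on 3000 variable genes, 30 principal components and 15 neighbours with leidenalg 0.10.2 at resolution 1. Cadherin and catenin list genes did not enter. A cluster was named after 1 of 24 marker sets when at least 3 of its markers exceeded a log2 fold of 0.5 and their mean reached 1, unless a different set had more of its markers among the cluster's top 10 genes by fold. Names carry "-like" for that reason. The rule on leading genes kept 3 clusters unnamed, nearest CA1 (777 and 565 nuclei), CA3 (303 and 285) and MGE interneurons (55 and 53). The minimum on the mean was set after the clusters were seen; it kept 1 cluster nearest CA1 (1.50% of Control and 1.87% of the other library) and 1 nearest cycling progenitors (0.398% and 0.409%) unnamed. Unnamed nuclei came to 10.6% and 10.3%.

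UMIs were summed per library and class, and the ratio had 0.5 UMI added to each sum. Intervals are exact Poisson for a level, exact conditional binomial for a ratio and Clopper-Pearson for a share. Free RNA was read from microglia-like nuclei. A nucleus counted as female when it had 2 or more Xist UMIs and none of Y-linked genes, and as male when it had a Y-linked UMI and no Xist. The size-rule script was checked on simulated data. Alternatives were TMM (edgeR 4.0.16) and median-of-ratios scaling (as in DESeq2 1.42.0), lower minimums, a 1.5-fold rule, 5 UMIs added, doublets kept, at least 1000 genes, resolution 2, list genes in the clustering, each sex alone, thinning to 2000 UMIs, subtraction of free RNA, state bounds of 10% and 50%, and single clusters. Named genes were Cic, Etv4 and Etv5, the 10 members, genes of the other cadherin and tail partner lists past the size rule, and the 3 nearest patterns of each member, of which 1 is not reported here. Cdh2 and the cluster-leading genes were named after their values were seen. The members and lists were chosen with earlier results of these data known.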

Additional observations from a re-analysis of the deposited data

Results flagged for a closer look

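Several genes had ratios of opposite direction in different classes; the differences between classes were not tested. Cdh6 was 1.77 in oligodendrocyte-like and -0.53 in deep-layer excitatory-like nuclei. Cdh8 was 0.51 in committed oligodendrocyte precursor-like and -0.52 in deep-layer excitatory-like nuclei. Cdh12 was 0.66 in CA1-like and -0.94 in CGE interneuron-like nuclei. Cdh13 was 2.30 in CA3-like and -0.93 in immature granule-like nuclei, and Cdh20 was 1.54 in CA1-like and -0.91 in radial glia-like nuclei. Within the Sema3c-led cluster, with most of the immature granule-like nuclei, Cdh13 was 0.26 (interval -0.11 to 0.63).

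Nuclei called female, from 1 mouse per library, and those called male, from 2, had ratios of opposite sign in 43 of 132 values that met the minimums. In 12 of the 43 both counting intervals lay apart from 0, and in 3 of these both ratios were also at least 0.3 in size; these 3 are given here, and the difference was not tested either. Cdh11 in endothelial-like nuclei was 1.25 in the female nuclei (24 and 44 nuclei) and -0.92 in the male nuclei (34 and 41 nuclei). Cdh8 in oligodendrocyte-like nuclei was -0.69 in female and 0.46 in male nuclei. Cdh10 in oligodendrocyte-like nuclei was level over the pool but stood at 1187 and 803 CPM in female nuclei (log2 -0.56) and at 943 and 1219 CPM in male nuclei (log2 0.37).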

How the results depend on the processing

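No paired analysis was possible because each genotype is 1 pooled library and the groups share a single replicate number. The 11 values past the size rule had 138 alternative values: 75 moved by less than their counting interval, 62 moved by more, and 1 changed direction. That one was Cdh6 in oligodendrocyte-like nuclei, which was -0.63 in the cluster led by 4930420G21Rik alone (329 and 39 UMIs), an alternative chosen after seeing the data. Cdh10 in granule-like nuclei (1.75) was 1.65 with doublets kept, 1.62 with at least 1000 genes, 1.52 with list genes in the clustering, 1.63 in female nuclei and 1.86 in male nuclei. Within single clusters, also chosen after seeing the data, it was 1.56 (Trpc6-led) and 0.26 (Bmp6-led). The count of members past the rule in granule-like nuclei was 1 instead of 2 with list genes in the clustering, where Cdh13 was 0.93. In CA1-like nuclei it was 5 instead of 3 with a 1.5-fold rule and 5 in female nuclei, and it was 2 in male nuclei and 4 with free RNA subtracted. In CA3-like nuclei it was 1 under all 13 alternatives. The count of states that differ was 8 in the main setting, ran from 8 to 13 over 12 alternatives and was 13 with doublets kept. It was 11 in female nuclei and with the 10% bound. It was 10 in male nuclei, with TMM or median-of-ratios scaling, at least 1000 genes, free RNA subtracted or the 50% bound. In CA1-like nuclei Cdh13 (1.26) and Cdh20 (1.54) were 3.46 and 3.02 with doublets kept, and 3.22 and 3.31 at resolution 2. With doublets kept the C1qtnf7-led cluster (219 and 419 nuclei, mean log2 fold 0.995) was under the late minimum of 1 and stayed unnamed. At resolution 2 clusters led by Unc13c (107 and 285 nuclei) and C1qtnf7 (76 and 74 nuclei) stayed unnamed too. Both CA1-like classes thus left such clusters out, and without the C1qtnf7-led cluster the main setting gave 3.42 and 3.07. The cause of each shift was not tested. Both calls in CA2-like nuclei were lost with doublets kept (Cdh13 0.997, Cdh7 0.970), in a class of 421 and 343 nuclei instead of 145 and 128. In the 101 and 137 endothelial-like nuclei 1 of 10 members reached 50 UMIs.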

Other observations

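Clusters that stayed unnamed also carried cadherins at levels of note. The cluster led by Npsr1, with 379 Control nuclei and 436 in the library labelled Knockout, had Cdh20 at 728 and 608 CPM (log2 -0.26) and Cdh8 at 935 and 745 CPM (log2 -0.33), while its Cdh18 was at 133 and 265 CPM (log2 1.00, interval 0.88 to 1.12). A smaller cluster of 116 and 159 nuclei had Cdh20 at 713 and 841 CPM (log2 0.24), Cdh18 at 611 and 363 CPM (log2 -0.75) and Cdh13 at 534 and 384 CPM (log2 -0.48). These clusters were chosen for description after their values were seen.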
